A study of Mus musculus with 6 samples.

Results

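The genes described are 10 nuclear receptor genes, taken by symbol from the count table: the thyroid hormone receptor genes Thra and Thrb, the retinoic acid receptor genes Rara and Rarg, the retinoid X receptor genes Rxra and Rxrb, the COUP-TF genes Nr2f1 and Nr2f2, the liver X receptor gene Nr1h2 and the peroxisome proliferator-activated receptor gene Ppard. All 10 were among the 29493 genes of the table, and 9 passed the filter on low counts, which kept 18067 genes; Thrb did not. HT22, an immortalised line of mouse hippocampal neurons, had been stably transfected so that V5-tagged KLF13, a zinc-finger transcription factor, is made when doxycycline lifts the tet repressor. The 3 Dox libraries came from cells given 1 µg/ml doxycycline for 8 hours and the 3 Vehicle libraries from cells of the same line (genotype label HT22-TR/TO-V5Klf13-1) given vehicle. All cells grew in high-glucose medium with fetal bovine serum, so all were exposed to the hormones that serum holds, whose levels were not measured. Nothing in the labels states if replicates came from separate cultures; every p-value below therefore reflects only how far these 6 libraries spread, and that spread may be technical. No library had doxycycline without the transgene, so effects of KLF13 and of the drug cannot be told apart.

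Nuclear receptors are transcription factors that bind DNA through zinc fingers and, in most cases, change their activity when a small lipid-soluble ligand binds. Thyroid hormone, retinoic acid, liver X and PPAR receptors mostly act as heterodimers with a retinoid X receptor, recruiting corepressors without ligand and coactivators with it. COUP-TF proteins are orphan members, which have no established natural ligand, and can bind the same kind of DNA repeats. In the brain, thyroid hormone and retinoic acid receptors are known for roles in neuronal development and hippocampal plasticity, and KLF genes such as Klf9 are known targets of thyroid hormone there.

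The libraries held 38566798 to 52930384 counts, and levels are given as CPM, counts scaled to a common library size with TMM factors. Klf13 had 205, 188 and 184 CPM in the Dox libraries, against 37.0, 36.1 and 39.1 CPM in the Vehicle libraries, counts that cannot separate the transgene from the endogenous gene. Of 12 neuronal markers 8 were in the table. Tubb3, neuronal beta-tubulin, had 644 to 706 counts in Dox and 2299 to 3138 in Vehicle libraries, but Map2, a dendritic protein gene, had only 2 to 7 counts with Dox and 6 to 10 with Vehicle. Of the 6 neuronal markers tested, 4 were lower with Dox, Syt1, a synaptic vesicle gene, was higher (1.501 ± 0.476 CPM with Dox and 0.697 ± 0.0360 CPM with Vehicle), and 1 did not pass. Among all tested genes 28.8% were lower and 25.9% higher by the same test (edgeR, adjusted p under 0.05). The summed level of the neuronal markers was 33.4 to 35.5 CPM with Dox and 96.4 to 97.8 CPM with Vehicle, of which Tubb3 alone made 14.7 CPM with Dox and 60.7 CPM with Vehicle on average. The summed level of 8 fibroblast markers was 9706 to 10290 CPM with Dox and 12110 to 12810 CPM with Vehicle. Most of it was Col1a2, Col3a1, Fn1 and Col1a1, at 4387, 2230, 1693 and 1635 CPM with Dox on average. With Vehicle these averaged 5069, 2422, 2208 and 2580 CPM. Of the 7 fibroblast markers tested, 5 were lower with Dox and 2 did not pass. The part of the neuronal or fibroblast markers in the results below was not tested. In bulk samples fewer cells of a type and less RNA per cell cannot be told apart.

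The receptor genes did not move together. The retinoic acid and thyroid hormone receptor genes Rarg, Thra and Rara fell most, between 2.71-fold and 4.67-fold, Rxrb fell slightly, Rxra fell at the edge of the threshold, Nr2f1 and Ppard rose slightly, and Nr2f2 and Nr1h2 did not pass the test. In all, 5 of the 9 tested receptor genes fell and 2 rose (edgeR quasi-likelihood test, adjusted p under 0.05). Over all tested genes 54.7% were called, 28.8% lower and 25.9% higher, the background against which 7 called of 9 is to be read. Upper-quartile scaling gave 6246 genes higher and 4457 lower, against 4687 higher and 5203 lower with TMM. Called falls of at least 2-fold were 7.51% of all tested genes and 3 of these 9. The median log2 fold change was -0.27 over the 9 genes and 0.018 over all tested genes. The groups of 3 libraries did not overlap for 7 of the 9 genes, and for 64% of all tested genes.

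**Figure D1:**
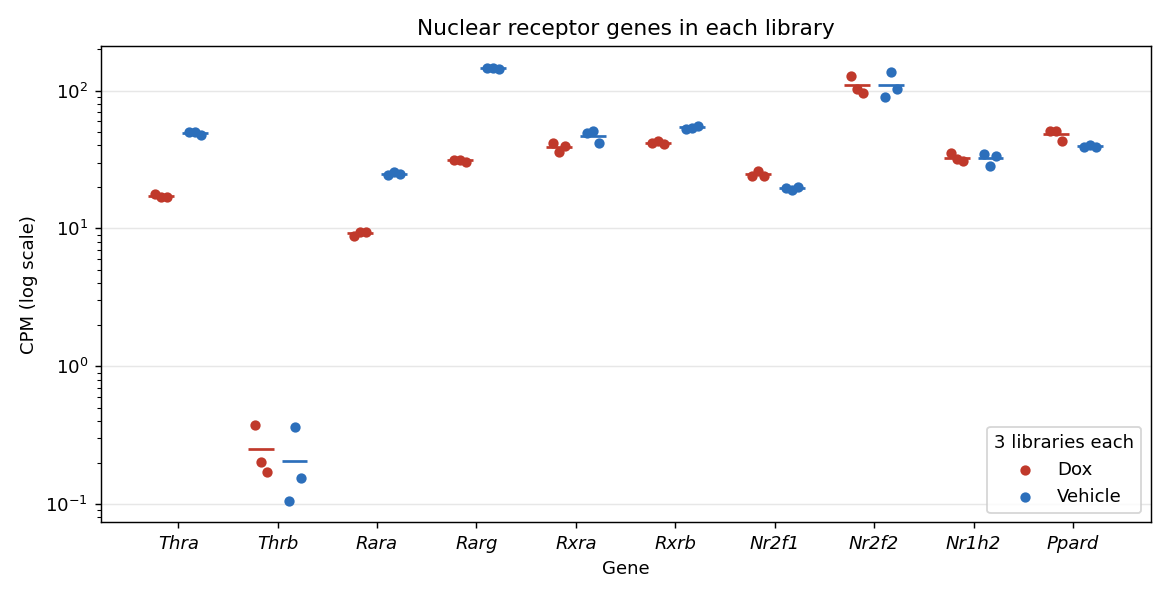
Level of each receptor gene in CPM (log axis); each point is 1 library, each short line the mean of 3, with Dox left of Vehicle. For Rarg, Thra and Rara the Dox libraries sit far below all Vehicle libraries, while those of Nr2f2 and Nr1h2 are mixed and Thrb is under 0.4 CPM in every library.

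Retinoic acid receptors are encoded by 3 genes, Rara, Rarb and Rarg, whose proteins bind all-trans retinoic acid. Rarg (chr15:102234938-102257517, minus strand, GRCm38) had 31.5, 31.3 and 30.6 CPM in the Dox libraries, against 146.9, 144.8 and 143.9 CPM in the Vehicle libraries. The 3 Dox values lie within 1 CPM of each other and none is near a Vehicle value. The fall was 4.67-fold (log2 fold change -2.22 ± 0.027 SE, edgeR adjusted p = 8.4e-07). Rara (chr11:98927818-98974942, plus strand) had 8.88, 9.44 and 9.39 CPM with Dox, against 24.6, 25.5 and 25.0 CPM with Vehicle. Every Dox library was lower than every Vehicle library, and the fall was 2.71-fold (log2 fold change -1.44 ± 0.047 SE, edgeR adjusted p = 2.8e-06). Rarb, the third gene of the class, was barely detected, at 0.289 ± 0.160 CPM with Dox and 0.278 ± 0.108 CPM with Vehicle (SD, n = 3 each), and did not pass the test (edgeR adjusted p = 0.89). It shares 34.1% of its exon bases with Top2b, a topoisomerase gene on the opposite strand at 213.4 CPM with Dox and 185.8 CPM with Vehicle, so its few counts are uncertain.

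Rarg fell further than Rara. Within each library the log2 ratio of Rara to Rarg, per kilobase of exon, with 0.5 counts added to each, was -1.86, -1.76 and -1.74 with Dox, against -2.61, -2.54 and -2.56 with Vehicle. This ratio does not depend on how libraries are scaled, and the groups did not overlap. The difference of 0.79 had p = 0.1 in a two-sided exact permutation test, the smallest p that 3 libraries against 3 allow (0.2 after adjustment over the 4 receptor pairs compared). The 3 genes whose levels followed Rarg most closely over the 6 libraries, out of 10569 compared, were Maged1, Pacs1 and Gdf11, with Pearson r of 0.99999, 0.99990 and 0.99987 on the log2 scale. The correlation runs over both groups and so holds the difference between them. Their own log2 fold changes were -1.49 ± 0.021 for Maged1, -2.82 ± 0.044 for Pacs1 and -2.35 ± 0.046 for Gdf11 (SE).

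Because KLF proteins are known to bind GC-rich boxes and CACCC-type boxes, the 250 bases before the first-listed transcription start were searched for GGGCGG and CACCC on both strands, in the RefSeq promoter sequences of GRCm38.p6. The promoters of Rarg and Rara are shown because these receptors fell. That of Nr1h2 is shown because the gene did not pass the test and its promoter held neither motif. As Nr1h2 was chosen for lacking the motifs, the contrast between the printed sequences is not a result. Rara has 4 listed promoters, Rarg 2 and Nr1h2 1, and only the first was searched. Capitals mark the motif letters, and runs that overlap are joined. Rarg is chr15:102257523-102257772 on the minus strand, Rara chr11:98937446-98937695 on the plus strand, and Nr1h2 chr7:44553966-44554215 on the minus strand.
Rarg: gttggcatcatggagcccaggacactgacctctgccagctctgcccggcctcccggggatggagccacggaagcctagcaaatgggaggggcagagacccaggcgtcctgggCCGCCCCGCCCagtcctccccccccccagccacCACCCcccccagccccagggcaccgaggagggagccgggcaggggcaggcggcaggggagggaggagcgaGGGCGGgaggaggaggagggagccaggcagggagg
Rara: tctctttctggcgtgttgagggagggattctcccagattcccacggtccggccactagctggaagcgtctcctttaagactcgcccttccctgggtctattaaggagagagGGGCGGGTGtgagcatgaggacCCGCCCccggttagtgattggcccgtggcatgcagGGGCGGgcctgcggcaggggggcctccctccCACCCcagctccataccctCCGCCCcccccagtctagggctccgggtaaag
Nr1h2: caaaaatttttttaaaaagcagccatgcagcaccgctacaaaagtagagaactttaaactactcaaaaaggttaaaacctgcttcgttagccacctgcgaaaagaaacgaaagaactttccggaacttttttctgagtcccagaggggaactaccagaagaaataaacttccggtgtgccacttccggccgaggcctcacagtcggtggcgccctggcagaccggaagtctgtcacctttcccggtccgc
The Rarg sequence holds 3 matches to GGGCGG and 1 to CACCC, that of Rara holds 4 and 2, with 1 place where both overlap, and that of Nr1h2 holds 0 of either. Of the 9 receptor genes with a listed promoter (all but Thra), 7 held GGGCGG and 5 held CACCC, against 32.9% and 51.3% of 27025 promoters. Of the other receptors that fell, Rxra held 3 GGGCGG and 2 CACCC matches, and Rxrb held 2 and 0. Of those that rose, Ppard held 3 and 0, and Nr2f1 held 1 and 2. Nr2f2, which did not pass the test, held 0 and 1, and the barely detected Thrb held 3 and 0. Whether the motifs had a part in the changes was not tested. The GC content was 74.4% for Rarg, 65.2% for Rara and 48.4% for Nr1h2, with a median of 52% over all promoters, and GGGCGG is made of those bases alone. These are matches of letters, not measured binding.

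Thyroid hormone receptors are encoded by Thra, the main form in brain, and Thrb. Thra (chr11:98740638-98769006, plus strand) had 755, 835 and 788 counts in the Dox libraries, against 1890, 2082 and 2465 counts in the Vehicle libraries. Scaled for depth, these were 16.9 to 17.7 CPM with Dox and 47.5 to 50.1 CPM with Vehicle. The groups are far apart, and the fall was 2.86-fold (log2 fold change -1.52 ± 0.042 SE, edgeR adjusted p = 1.8e-06). Thra also encodes the splice form TRα2, which does not bind thyroid hormone, and counts per gene do not separate it from the hormone-binding form TRα1. At its 3′ end Thra shares 263 exonic bases, 5.7% of its exons, with Nr1d1, the circadian repressor gene REV-ERBα, on the opposite strand. The strand setting of the counting is not given in the sources used here, so reads from those bases cannot be told apart. Nr1d1 itself had 23.8, 23.1 and 24.2 CPM with Dox and 19.9, 19.8 and 20.1 CPM with Vehicle, a rise (log2 fold change 0.25 ± 0.040 SE, edgeR adjusted p = 0.0019) while Thra fell.

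Thrb was near the limit of detection. It had 16, 10 and 8 counts in the Dox libraries, against 4, 15 and 8 counts in the Vehicle libraries, and the groups overlapped. It did not pass the filter. In a fit with no filter the log2 fold change was 0.26 ± 0.53 SE, with a 95% interval of -1.001 to 1.53 (edgeR adjusted p = 0.78). Changes within that interval are not excluded at this depth. Thra made up 99.1% ± 0.362 of the summed thyroid hormone receptor level per kilobase of exon with Dox and 99.7% ± 0.166 with Vehicle (SD, n = 3 each). The log2 ratio of Thra to Thrb was lower by 1.87 with Dox than with Vehicle, without overlap (two-sided exact permutation p = 0.1, adjusted 0.2), and it rests on the few counts of Thrb.

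**Figure D2:**
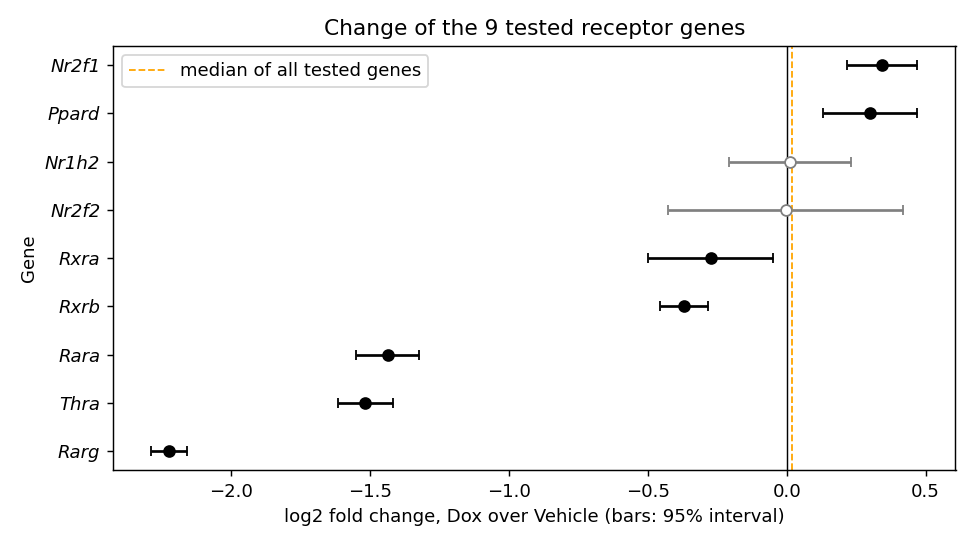
Log2 fold change of the 9 tested receptor genes, Dox over Vehicle, with 95% intervals; filled points passed an adjusted p under 0.05 and open points did not. Rarg, Thra and Rara lie beyond -1.4, Rxrb and Rxra are slightly below 0, and the intervals of Nr2f2 and Nr1h2 span 0.

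Retinoid X receptors are the common heterodimer partners of the other classes. Rxrb (chr17:34031812-34038399, plus strand) had 41.9, 42.7 and 41.1 CPM in the Dox libraries, against 52.7, 53.7 and 55.8 CPM in the Vehicle libraries. The groups did not overlap and the fall was 1.29-fold (log2 fold change -0.37 ± 0.036 SE, edgeR adjusted p = 1.9e-04). Rxra (chr2:27676440-27762957, plus strand) had 41.5, 35.7 and 39.7 CPM with Dox, against 48.8, 51.1 and 41.5 CPM with Vehicle. The highest Dox library and the lowest Vehicle library lay within 0.1 CPM of each other. The log2 fold change was -0.27 ± 0.093 SE, with a 95% interval of -0.50 to -0.050 and an edgeR adjusted p of 0.045. That call did not hold without Dox replicate 1, 2 or 3 or Vehicle replicate 1 or 2 (edgeR adjusted p = 0.051, 0.12, 0.086, 0.11 and 0.12), nor with limma-voom (0.052), no filter (0.067) or upper-quartile scaling (log2 fold change -0.18, adjusted p = 0.14). The log2 ratio of Rxra to Rxrb differed by 0.097 between the groups, which overlapped (two-sided exact permutation p = 0.5, adjusted 0.5).

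Since RXR proteins pair with the receptors that fell, the summed levels of the classes were set side by side per kilobase of exon. The Rara, Rarb and Rarg levels summed to 9.47, 9.54 and 9.41 CPM per kb in the Dox libraries, against 40.2, 39.9 and 39.5 CPM per kb in the Vehicle libraries. Within that sum Rarg made up 77.1% ± 0.956 with Dox and 85.5% ± 0.309 with Vehicle (SD, n = 3 each), so it was the most abundant gene of the class in both groups, and Rarb made up 0.581% ± 0.325 with Dox and 0.132% ± 0.0504 with Vehicle. The Rxra and Rxrb levels summed to 18.1, 17.3 and 17.6 CPM per kb with Dox, against 22.2, 22.9 and 21.6 CPM per kb with Vehicle. This RXR sum of Rxra and Rxrb thus stood at 1.87 ± 0.051 times the summed retinoic acid receptor level with Dox and at 0.558 ± 0.0137 times it with Vehicle. Against the thyroid hormone receptor sum the RXR sum was 4.70 ± 0.058 times as high with Dox and 2.08 ± 0.033 times with Vehicle (SD, n = 3 each). These are ratios of messenger RNA levels, and proteins were not measured. The size of each ratio depends on the annotated exon lengths, and the annotation used for the counting is not given.

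**Figure D3:**
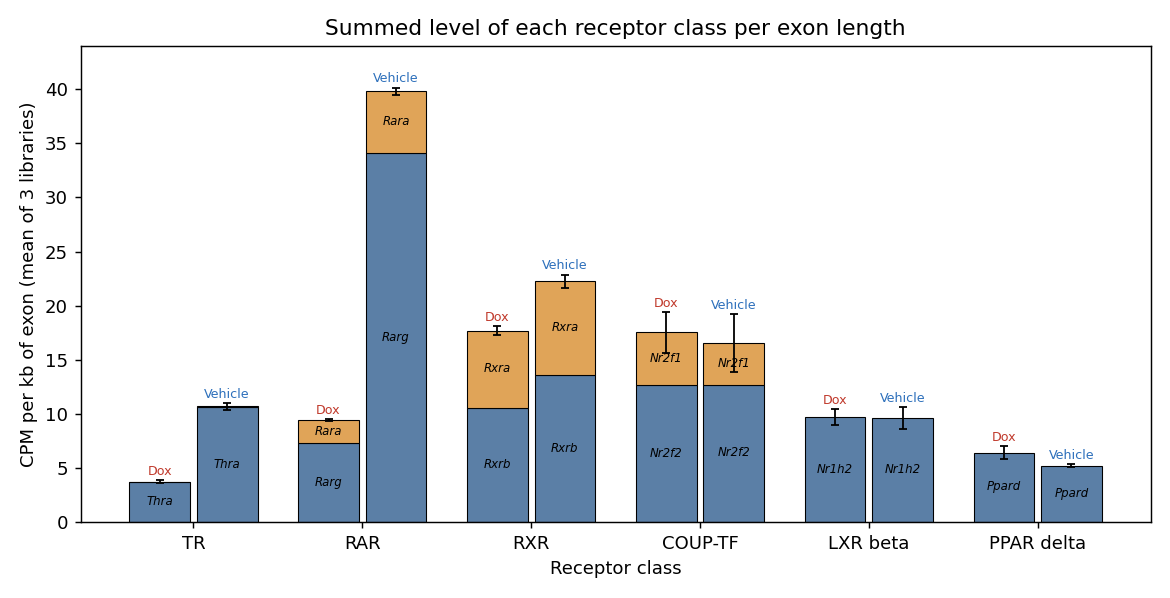
Mean level per kilobase of exon for each receptor class, stacked by gene, with Dox left of Vehicle and error bars for the SD of the sum over 3 libraries; Rarb is left out. The retinoic acid receptor bar is the tallest with Vehicle and lies below the RXR and COUP-TF bars with Dox.

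The COUP-TF genes encode orphan receptors that act mostly as repressors in brain development. Nr2f1 (chr13:78188973-78199757, minus strand), which encodes COUP-TFI, had 24.0, 26.2 and 24.1 CPM in the Dox libraries, against 19.7, 18.9 and 19.98 CPM in the Vehicle libraries. All Dox libraries were higher, and the rise was 1.27-fold (log2 fold change 0.34 ± 0.052 SE, edgeR adjusted p = 0.0016). It shares 123 exonic bases with the antisense gene A830082K12Rik, which did not pass the test (log2 fold change -0.20 ± 0.13 SE, edgeR adjusted p = 0.25). Nr2f2 (chr7:70351944-70366735, minus strand), which encodes COUP-TFII, had the widest spread of the tested receptors. It had 128.4, 102.9 and 96.6 CPM with Dox, against 90.5, 136.3 and 102.1 CPM with Vehicle, and the highest and the lowest library of all were both Vehicle ones. The log2 fold change was -0.0041 ± 0.17 SE with a 95% interval of -0.43 to 0.42 (edgeR adjusted p = 0.99), so changes within that interval are not excluded. Nr2f2 shares 643 bases, 7.46% of its own exons, with the opposite-strand gene B130024G19Rik, which had 19.4 ± 0.720 CPM with Dox and 20.2 ± 0.812 CPM with Vehicle (SD, n = 3 each). The log2 ratio of Nr2f1 to Nr2f2 was -1.66, -1.21 and -1.24 with Dox and -1.44, -2.09 and -1.59 with Vehicle (two-sided exact permutation p = 0.3, adjusted 0.4).

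The sterol and fatty acid sensors moved little. Nr1h2 (chr7:44549616-44553951, minus strand) encodes the liver X receptor LXRβ, which senses oxysterols, and had 35.2, 31.7 and 30.6 CPM in the Dox libraries, against 34.7, 28.4 and 33.6 CPM in the Vehicle libraries. The groups were mixed, with a log2 fold change of 0.013 ± 0.091 SE and a 95% interval of -0.21 to 0.23 (edgeR adjusted p = 0.92). Its paralogue Nr1h3 was at 0.109 ± 0.0571 CPM with Dox and 0.0442 ± 0.0765 CPM with Vehicle (SD, n = 3 each) and was not tested. Ppard (chr17:28232700-28301474, plus strand), which encodes the fatty acid sensor PPARδ, had 50.6, 51.2 and 43.2 CPM with Dox, against 38.9, 40.3 and 38.8 CPM with Vehicle. Dox replicate 3 lay nearer to the Vehicle libraries than to the other Dox libraries, but above all of them, and the rise was 1.23-fold (log2 fold change 0.30 ± 0.070 SE, edgeR adjusted p = 0.011).

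Per kilobase of exon, the order of the receptors differed between the groups. With Dox, Nr2f2 was highest at 12.7 ± 1.96 CPM per kb, followed by Rxrb (10.5 ± 0.209), Nr1h2 (9.70 ± 0.723), Rarg (7.30 ± 0.114), Rxra (7.14 ± 0.540), Ppard (6.43 ± 0.595), Nr2f1 (4.87 ± 0.242), Thra (3.73 ± 0.101), Rara (2.12 ± 0.0716) and Thrb (0.0338 ± 0.0149; SD, n = 3 each). With Vehicle, Rarg led at 34.1 ± 0.361 CPM per kb, followed by Rxrb (13.6 ± 0.400), Nr2f2 (12.7 ± 2.76), Thra (10.7 ± 0.314), Nr1h2 (9.61 ± 0.993), Rxra (8.63 ± 0.921), Rara (5.73 ± 0.104), Ppard (5.23 ± 0.111), Nr2f1 (3.83 ± 0.1102) and Thrb (0.0279 ± 0.0182). Neighbours whose libraries overlapped with Dox were Rxrb with Nr1h2, Rarg with Rxra and Rxra with Ppard, and with Vehicle each neighbouring pair from Rxrb down to Rxra. Rarg stood at the 59th percentile of tested genes with Dox and the 88th with Vehicle, and Rara at the 35th and the 52nd.

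In the authors' deposited table, 6 of the 10 receptor genes were called, against 40.3% of genes with an adjusted p there. These were Rarg, Thra, Rara, Rxrb, Nr2f1 and Ppard. Rxra was not called in the authors' deposited table (log2 fold change -0.27, adjusted p = 0.0125), where every called gene had an adjusted p under 0.01.

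Other nuclear receptor genes included more falls than rises. Of 34 listed, 26 were in the table and 15 were tested; 9 fell, 1 rose (Nr1d1) and 5 did not pass (edgeR quasi-likelihood test, as for the lists that follow), with a median log2 fold change of -0.53 against 0.018 for all tested genes. Over all tested genes 28.8% were called lower and 25.9% higher. The count of rises was 2 without Dox replicate 1 or Vehicle replicate 2, and 3 with upper-quartile scaling. Vdr, the vitamin D receptor gene, was at 6.90 ± 0.257 CPM with Dox and 20.2 ± 0.992 CPM with Vehicle (SD, n = 3 each). Nr4a1, an activity-induced orphan receptor gene, was at 2.52 ± 0.102 CPM with Dox and 7.01 ± 0.526 CPM with Vehicle (SD, n = 3 each). Nr2f6, a further COUP-TF relative, fell by 0.82 ± 0.039 on the log2 scale and Nr1d2, which encodes REV-ERBβ, by 0.53 ± 0.048 (SE). Of the Nr2f6 exon bases 54.4% are shared with Ocel1 on the opposite strand.

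Genes for the proteins that receptors recruit moved both ways. Of 19 coactivator genes tested, 9 fell, 5 rose and 5 did not pass (median log2 fold change -0.20). For these and the corepressors below, the share over all tested genes was 54.7% called, 28.8% lower and 25.9% higher. Ncoa6, a scaffold of a methyltransferase coactivator complex, fell by 0.77 ± 0.042 and Prmt1, an arginine methyltransferase gene, by 0.52 ± 0.037 on the log2 scale, while Trip4, a subunit of the ASC-1 coactivator complex, rose by 0.50 ± 0.033 and Ncoa4, also a ferritin receptor of autophagy, by 0.45 ± 0.032 (SE). The p160 family of steroid receptor coactivators, named after its values were seen, did not move as one: Ncoa3 was at 55.1 ± 3.41 CPM with Dox and 48.4 ± 1.34 CPM with Vehicle, a rise (edgeR adjusted p = 0.023), while Ncoa2 was at 16.2 ± 5.59 CPM with Dox and 65.8 ± 3.39 CPM with Vehicle, and Ncoa1 at 7.87 ± 1.78 CPM with Dox and 28.7 ± 1.66 CPM with Vehicle (SD, n = 3 each). Of 15 corepressor genes tested, 8 fell, 2 rose and 5 did not pass (median -0.17). Tbl1x, a subunit of the NCoR and SMRT complexes, fell by 0.81 ± 0.031, Lcor, a ligand-dependent corepressor gene, had a log2 fold change of -1.202 ± 0.12 and Rcor1, the CoREST scaffold gene, fell by 0.61 ± 0.057, while Gps2, a further subunit of those complexes, rose by 0.40 ± 0.040 (SE). Ncor1 did not pass (log2 fold change -0.077 ± 0.043 SE, adjusted p = 0.18).

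Few genes of hormone supply were measurable for thyroid hormone, and more for retinoids. Of 12 thyroid hormone transport and metabolism genes, 5 were in the table and 3 were tested. Secisbp2, needed to make selenoproteins such as the deiodinases, rose by 0.36 ± 0.055, Slc7a5, an amino acid transporter that also carries thyroid hormone, fell by 0.12 ± 0.018, and Slc16a10 did not pass (0.050 ± 0.049; log2 scale, SE). With upper-quartile scaling Slc7a5 did not pass (log2 fold change -0.024, edgeR adjusted p = 0.29). Of 8 tested retinoid transport and metabolism genes, 4 fell, 3 rose and 1 did not pass (median -0.12). The share over all tested genes was 54.7% called, 28.8% lower and 25.9% higher. With a mean CPM of at least 5, which leaves out genes of low level, 2 fell and 1 rose. The count of rises was 2 without Dox replicate 1, 2 or 3 or Vehicle replicate 1 or 2. Cyp26b1, which degrades retinoic acid, was at 2.63 ± 0.267 CPM with Dox and 5.32 ± 0.214 CPM with Vehicle (SD, n = 3 each). Rdh10, which makes retinaldehyde from retinol, fell by 0.32 ± 0.044, while Rdh11, a retinal reductase gene, rose by 0.80 ± 0.051 on the log2 scale (SE).

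Known target genes of the receptors moved both ways. Over all tested genes 54.7% were called, 28.8% lower and 25.9% higher. With rises and falls counted together, thyroid hormone, retinoic acid and LXR targets were called about as often as all genes. Falls outnumbered rises in each of these lists. Of 9 tested thyroid hormone target genes, 4 fell, 1 rose (2 without Dox replicate 2) and 4 did not pass (median log2 fold change -0.52). That median is the value of a gene with only 10 to 28 counts per library, which did not pass. Klf9 was at 9.83 ± 1.05 CPM with Dox and 23.2 ± 1.44 CPM with Vehicle (SD, n = 3 each). Me1, malic enzyme, fell by 0.84 ± 0.032 and Gpd2, mitochondrial glycerol-3-phosphate dehydrogenase, by 0.59 ± 0.045, while Stard4, a sterol carrier gene, rose by 0.21 ± 0.033 on the log2 scale (SE). Of 13 tested retinoic acid target genes, 6 fell, 1 rose and 6 did not pass (median -0.44). The rise was that of Crabp2, a retinoic acid carrier gene, at 0.801 ± 0.0701 CPM with Dox and 0.529 ± 0.0862 CPM with Vehicle (SD, n = 3 each), and it was lost without Dox replicate 2 or 3 or Vehicle replicate 2 and with DESeq2. Cyp26b1 stands in this list too, and beside it Hoxa4, a homeobox gene, was at 2.83 ± 0.0698 CPM with Dox and 5.62 ± 0.219 CPM with Vehicle, and Tgm2, a transglutaminase gene, at 8.04 ± 0.147 CPM with Dox and 14.8 ± 0.717 CPM with Vehicle (SD, n = 3 each). Hoxa4 shares 16.0% of its exon bases with Gm29430, and Tgm2 13.7% with Gm20412, both on the opposite strand.

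The targets of the lipid sensors moved both ways too, where 54.7% of all tested genes were called, 28.8% lower and 25.9% higher. Of 11 tested LXR target genes, 4 fell, 2 rose (1 without Vehicle replicate 2 or 3) and 5 did not pass (median -0.083). Arl4c, a small GTPase gene, was at 53.8 ± 1.87 CPM with Dox and 119.8 ± 2.62 CPM with Vehicle (SD, n = 3 each), Lpcat3, a phospholipid-remodelling enzyme gene, fell by 0.88 ± 0.083 and Scd2, a fatty acid desaturase gene, by 0.47 ± 0.026, while Mylip, which encodes a ligase that degrades the LDL receptor, rose by 0.49 ± 0.045 on the log2 scale (SE). Of 17 tested PPAR target genes, 10 fell, 3 rose and 4 did not pass (median -0.45). A larger share of these was called than of all tested genes, mostly as falls. The fatty acid oxidation genes Acadm, Acadl and Cpt1a had log2 fold changes of -0.77 ± 0.045, -0.51 ± 0.029 and -0.45 ± 0.027 (SE), while Acadvl rose by 0.61 ± 0.030 on the log2 scale (SE). Acadvl shares 42.9% of its exon bases with Dvl2 on the opposite strand, and Lpcat3 10.2% with Emg1. Ligands were not measured, and these targets also answer to other factors.

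**Figure D4:**
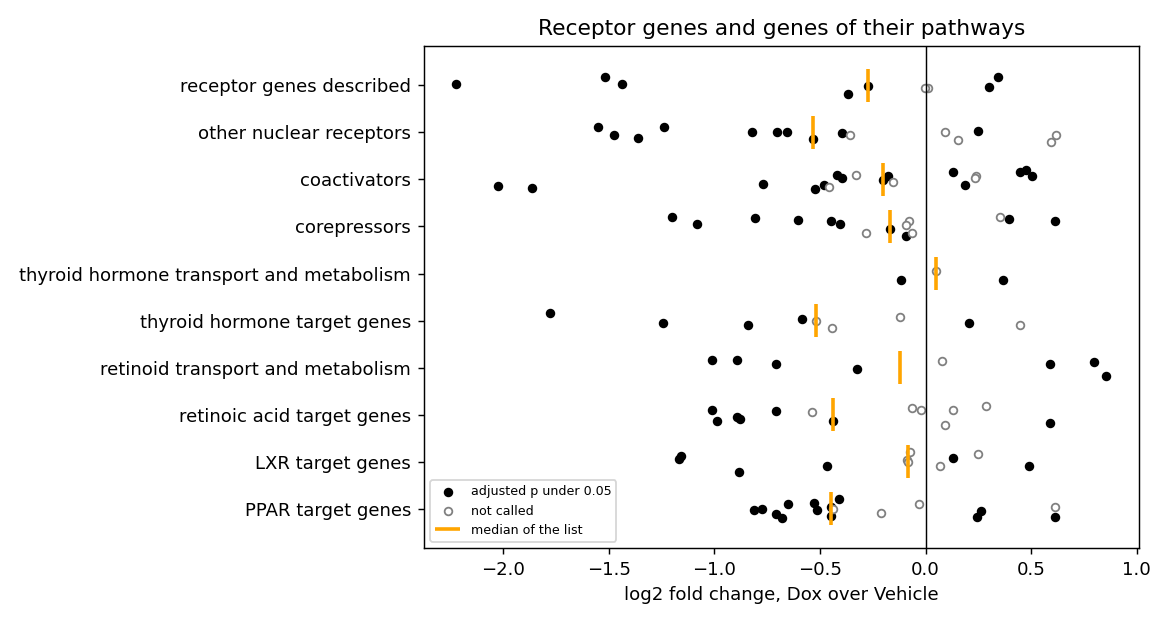
Log2 fold change, Dox over Vehicle, of each tested gene of the receptor genes described and of 9 pathway lists; filled points passed an adjusted p under 0.05, and the orange line is the median of the list. The medians lie between -0.53 for other nuclear receptors and 0.050 for thyroid hormone transport and metabolism.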

How the data were processed

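RNA sequencing of 6 libraries (3 Dox, 3 Vehicle) was analysed. GRCm38, DESeq2, StringTie 1.3.3, HISAT2 2.1.0 and FastQC 0.11.3 are listed, per the submitters' processing notes, with no role; the annotation, the strand setting and the treatment of multi-mapped reads were not given in the sources used here. Per gene symbol, the authors deposited whole-number counts. Per the file headers, their comparison table holds a mean signal of normalized counts, log2 fold changes, their errors and a test score, and raw and adjusted p-values.

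Counts were filtered with filterByExpr, scaled by TMM and tested with edgeR 4.0.16 (quasi-likelihood, limma 3.58.1, R 4.3.3) over 18067 genes, with Benjamini-Hochberg adjustment. Positions and exon lengths come from GENCODE M21 (GRCm38). The fit was tested on simulated data with few planted changes, equally up and down, so that test could not check the scaling. Between replicates, chi-square per degree of freedom was 12.1 to 15.1, above sampling noise. Alternatives were other scalings, filters, thresholds and tests (DESeq2 1.42.0, limma-voom), a replicate block and leaving out each library. The genes named are the 10 receptors, up to 4 called genes of smallest p per list, overlapping genes and those most like Rarg; Nr1h3, Rarb, Slc16a10, Syt1, Crabp2, Ncoa3, Ncor1, Ncoa1 and Ncoa2 were added after their values were seen. A further gene that the rule names is not reported here. Receptors and lists were chosen with earlier results of these data known.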

Additional observations from a re-analysis of the deposited data

How the results depend on the processing

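Thra, Rara, Rarg and Rxrb fell with an adjusted p under the threshold in all 15 alternatives. Their log2 fold changes ranged from -1.54 to -1.42 for Thra, -1.45 to -1.34 for Rara, -2.23 to -2.13 for Rarg and -0.39 to -0.28 for Rxrb. Rxra lost its call in 11 of 15 (log2 fold changes -0.36 to -0.18, adjusted p 0.010 to 0.44); the cause was not tested. The count of receptor genes that rose, 2 in the main analysis, was 1 at an adjusted p under 0.01 (Ppard, at 0.011, no longer passed) and 0 with glmTreat against 1.2-fold, where 1 had an unadjusted p under 0.05. DESeq2 called 2. The count of all genes called higher was 2417 with glmTreat. Receptor genes that fell numbered 4 or 5 in all alternatives. The log2 fold change of Nr2f2, -0.0041, was above 0 with upper-quartile scaling (0.091), limma-voom (0.0026), a mean CPM of at least 5 (0.015) and a replicate block (0.0052), and was -0.13 to 0.18 without 1 library; that of Nr1h2, 0.013, was -0.072 to 0.065 without 1 library. Without 1 library, the difference in log2 ratio was -2.33 to -1.50 for Thra to Thrb, -0.016 to 0.17 for Rxra to Rxrb, 0.76 to 0.82 for Rara to Rarg and 0.14 to 0.48 for Nr2f1 to Nr2f2.

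The groups share replicate numbers, but the deviations of libraries with the same number correlated at 0.081, 0.052 and -0.091. The main fit did not pair replicates. With a replicate block, 4602 genes were called higher and 5097 lower, and of the receptor genes 2 higher and 4 lower, Rxra having an adjusted p of 0.080. Of 270 list counts under alternatives, 236 stayed within 1.5 times the main count; those that did not were mostly counts of rises, which are small. Depth limits Thrb and Rarb, for which 2-fold changes were not detectable.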

Other observations

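Thra and Rara lie 158812 bases apart on chromosome 11, and the genes between them, looked at after the values of both were seen, moved in both directions. Of the 7 tested genes between them, 3 were lower with Dox, 2 higher and 2 did not pass (edgeR quasi-likelihood test, adjusted p under 0.05), where 54.7% of all tested genes were called. These 7 include Nr1d1, which overlaps the end of Thra. The spans of Msl1 and Casc3 also overlap, on the same strand, and the exon bases they share were not counted. Wipf2, which encodes a WASP-interacting protein of the actin cytoskeleton, fell by 2.08 ± 0.064 on the log2 scale, and Msl1, a subunit of a histone acetyltransferase complex, by 0.96 ± 0.045 (SE). Rapgefl1, named for its likeness to Rap exchange factors, was at 1.25 CPM with Dox and 6.34 CPM with Vehicle. Cdc6, a DNA replication licensing gene next to Rara, was at 132.6 CPM with Dox and 80.0 CPM with Vehicle, a rise of 0.73 ± 0.056 on the log2 scale (SE), and Nr1d1 rose as well. Casc3, a subunit of the exon junction complex, was at 105.0 CPM with Dox and 105.3 CPM with Vehicle and did not pass (adjusted p = 0.92).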
